A study of Mus musculus with 2 samples.

Results

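Calcium-activated chloride and water transport in the mouse cervix was followed through 8 genes, chosen by symbol out of the 31053 genes listed in the files. The set holds 3 calcium-activated chloride channel regulators (Clca1, Clca3a2 and Clca3b), 3 aquaporins (Aqp3, Aqp5 and Aqp8), the chloride channel Cftr and the sodium, potassium and chloride cotransporter Slc12a2. All 8 are listed for both libraries, Aqp8 with 0 UMIs in the control, and their levels are given in mucous luminal, Psca-positive and squamous cells. The cervices came from ovariectomised C57BL6/129 females, operated on at 7 to 8 weeks of age and left 2 weeks to recover, and each of the 2 single-cell libraries pooled 9 mice. Control mice were ovariectomised and received nothing during the 15 days of the experiment. Mice of the progesterone group were ovariectomised, received E2 at 100 µg per day in corn oil under the skin for 2 days, and then carried a 25 mg progesterone pellet of the 21-day kind, with an estimated release of 1 mg per day. The effects of E2, corn oil and progesterone therefore cannot be told apart here. With 1 library per group there was no replicate and no test between groups. Every interval in square brackets is a 95% interval that covers counting error only.

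A secretory epithelium moves fluid by taking chloride up across its basal side and letting it out at its apical side, with water following through aquaporins. Slc12a2 encodes NKCC1, the usual basolateral entry route for chloride, and Cftr encodes a cyclic AMP-gated apical channel for chloride and bicarbonate. Calcium-activated chloride exit runs mainly through anoctamins such as Ano1. CLCA proteins have a protease-like domain, several of them are secreted, and some raise the activity of that channel. Clca1 is best known from goblet cells, where its protein is packed and released with mucins. Aqp5 is an apical water channel of glands, Aqp8 a water channel of several digestive epithelia, and Aqp3 a water and glycerol channel typical of keratinocytes.

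The libraries held 5368 control and 10853 progesterone barcodes with 21658684 and 44811069 UMIs (unique molecular identifiers, 1 per captured RNA molecule). After filtering, 4579 and 8541 cells were kept, with median depths of 3733 and 4151 UMIs, and 12 barcodes of kept cells (19 of all barcodes) occurred in both libraries. Cells were clustered without the 8 genes and without 46 related transport genes taken from 5 lists, so that none of these defined the classes in which it was measured. Levels are UMIs summed over a class and scaled to 1000000 UMIs of that class (CPM). These are 3′ end counts, so levels of different genes were not compared.

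Mucous luminal cells were 137 of the control and 1775 of the progesterone cells, which is 2.99% [2.52 to 3.53] and 20.8% [19.9 to 21.7]. All 8 columnar markers and all 8 mucous markers had UMIs in this class in both libraries, and the mucous list summed to 16092 CPM in control and 23975 CPM in progesterone cells. Different clusters made up the class in the 2 libraries. In the control it held 93 cells of cluster 13, 40 of cluster 19 and 4 of cluster 23, and in the progesterone library 847 cells of cluster 19 and 928 of cluster 23. Cluster 13 also carried Psca at 3737 CPM and Krt5 at 2696 CPM, besides Muc5b at 4277 CPM. The genes that led it were Ly6g6c, Trex2, Slurp1, Avil, Krt8, Fxyd4, Padi1 and Krt78, with no marker of the mucous list among the leading 10, and its mean log2 level over the median cluster was 4.27 for the Psca list, which holds 5 of the columnar markers, and 3.87 for the mucous list. Its placing in the mucous class was decided after the clusters had been seen, so each control mucous luminal value below describes mostly these 93 cells, and values of cluster 19 are given beside it for the members that differed.

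Psca-positive cells were 85 control cells and 17 progesterone cells, all of cluster 18, with Psca at 20514 and 27269 CPM. Krt8 and Krt18 together stood at 1233 CPM over both libraries, against 3350 CPM in cluster 19, and the genes that led the cluster were of the cornified envelope (Crct1, Lce3a, Sprr2b and Cnfn). The leading genes thus go against a luminal name, but the columnar list as a whole does not. All 8 columnar markers had UMIs and summed to 11022 CPM in control and 14495 CPM in progesterone Psca-positive cells. Mucous luminal cells had 14846 CPM in the control and 6923 CPM with progesterone. Since the markers point both ways, the cells are called Psca-positive here. All 6 neutrophil markers also had UMIs in the control Psca-positive cells and summed to 29199 CPM, against 482 CPM in control squamous cells. S100a8 alone made up 11281 CPM of that sum. In progesterone Psca-positive cells the same list summed to 21900.5 CPM, against 218 CPM in progesterone squamous cells. There only 4 of the 6 markers had UMIs, and Cxcr2 and Retnlg were not among them. S100a8 made up 9050 CPM of the progesterone sum. The source of the UMIs of this list was not tested, nor was their part in the results on Psca-positive cells.

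Squamous cells numbered 3073 in the control and 4299 in the progesterone library. They were 1508 basal and 1565 suprabasal cells in the control, and 3169 basal and 1130 suprabasal cells with progesterone. Here too the clusters differed: 1082 of the control suprabasal cells were of cluster 6, to which the progesterone library gave 58 cells, whereas cluster 0 held 129 control and 1041 progesterone cells. Cluster 6 had Krt5 at 2375 CPM but was led by Ifitm1, Rpl29, Sprr2f and Spink12, with no suprabasal marker and 1 mucous marker, Wfdc18, among the leading 10. Its mean log2 level over the median cluster was 1.96 for the Psca list, 1.52 for the columnar list and 1.18 for the suprabasal list, with Psca itself at 590 CPM in control and 1915 CPM in progesterone cells. It is therefore counted among the suprabasal cells with that reservation, and squamous values are also given without it, an alternative chosen after seeing the data. Basal cells of the control came mostly from clusters 7, 4 and 8 and those of the progesterone library from clusters 9 and 8.

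**Figure D1:**
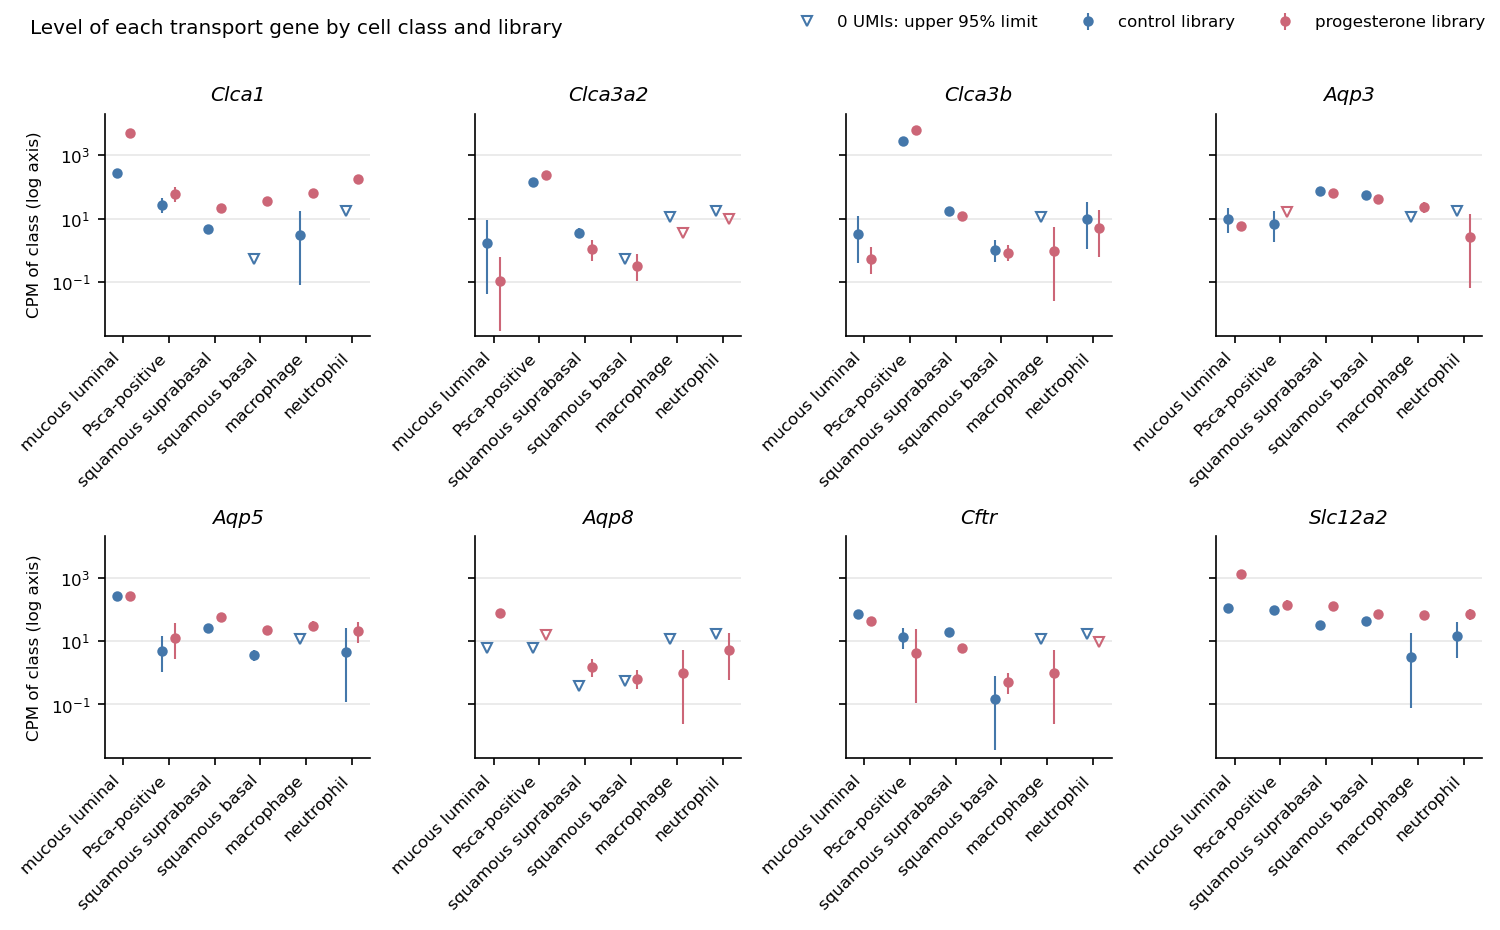
Level of each gene in CPM (log axis) by cell class, with macrophages and neutrophils beside them, for the control library (blue) and the progesterone library (red); points are summed UMIs of the class, bars are 95% Poisson intervals, and open triangles mark the upper 95% limit where a class had 0 UMIs. Clca1, Aqp8 and Slc12a2 stand highest in progesterone mucous luminal cells, Clca3a2 and Clca3b in Psca-positive cells and Aqp3 in squamous cells.

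Clca1 was far more abundant in mucous luminal cells of the progesterone library than in those of the control. The gene (ENSMUSG00000028255) lies on the minus strand at chr3:145003817-145032776 of GRCm38 and is protein coding. It stood at 274 CPM [234 to 319] in control mucous luminal cells, from 168 UMIs, and at 5115 CPM [5069 to 5162] in progesterone ones, from 46716 UMIs. The ratio was 18.6 [16.02 to 21.8]. After each cell was thinned to 2000 UMIs, which leaves out shallower cells, a Clca1 UMI was found in 18.3% [11.9 to 26.4] of the control cells and 57.4% [55.0 to 59.9] of the progesterone cells of this class. Without thinning these shares were 29.2% and 67.2%, where the median depth of the class was 4348 and 5009 UMIs.

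In cluster 19, the only mucous luminal cluster with more than 4 cells in both libraries, it stood at 79.6 CPM [44.5 to 131] in 40 control cells and 8532 CPM [8441 to 8624] in 847 progesterone cells.

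Clca1 was spread unevenly over the mucous luminal cells. In the progesterone library the median cell had 3 UMIs and the highest had 471, and the 178 cells with most UMIs, out of 1775, held 56.5% of all. Among the 137 control cells, 4 with at least 10 UMIs held 42.3% of the UMIs. Within the control class, cluster 13 stood at 372 CPM, above cluster 19. Of the progesterone cells, those of cluster 19 reached 8532 CPM and those of cluster 23 reached 2532 CPM, and the ratio was 3.37 [3.30 to 3.44]. Both progesterone clusters lay above every control cluster.

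Squamous cells had far less Clca1 than mucous luminal cells of the same library. They stood at 2.66 CPM in the control and 31.3 CPM with progesterone, a ratio of 11.8 [8.70 to 16.4]. Of the 44 control UMIs, 41 were in cluster 6, at 6.52 CPM, and 3 in the other squamous clusters, at 0.292 CPM. Without cluster 6 the ratio was 108 [36.9 to 526], resting on those 3 control UMIs. Macrophages of the progesterone library, which are not known to make this secretory protein, stood at 65.9 CPM [51.3 to 83.4] and neutrophils at 175 CPM [136 to 221]. After thinning, 5.74% [5.04 to 6.50] of progesterone squamous cells and 6.74% [3.63 to 11.2] of macrophages had a Clca1 UMI, compared with 13.03% and 14.1% before thinning (median depth 4894 and 1773 UMIs). The squamous share was thus no higher than that of macrophages, and the source of the squamous UMIs was not tested. Progesterone macrophages are themselves an imperfect reference for squamous cells, since they had Krt5 at 1824 CPM, against 306 CPM in control macrophages and 2830 CPM in progesterone basal cells. All 8 basal markers had UMIs in them and summed to 8155 CPM, against 1600 CPM in control macrophages. A squamous level that overlaps theirs is therefore described below as not above macrophages. Cells called erythrocytes reached 779 CPM, with 89.6% of their Clca1 UMIs in 8 of 138 cells.

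Clca3a2 and Clca3b followed a different course. Clca3a2 (ENSMUSG00000028262, chr3:144796559-144819494, minus strand) and Clca3b (ENSMUSG00000037033, chr3:144822623-144849357, minus strand) are neighbours in a row of 8 Clca genes, 7 of them protein coding, and 3128 bases lie between them. Each overlaps a gene model on the opposite strand, Gm43240 and Gm16215 respectively. Of the 90-base windows in the last 500 bases of the annotated transcripts, 7.84% for Clca3a2 were also found in Clca3a1. Reads from those windows do not tell the copies apart. Clca3b and the other 6 genes had no such window.

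Psca-positive cells held most UMIs of both genes in both libraries. Clca3b stood at 2804 CPM [2671 to 2942] in the 85 control cells, from 1670 UMIs, and at 6118 CPM [5806 to 6443] in the 17 progesterone cells, from 1436 UMIs. That was 90.2% of all Clca3b UMIs of the control library and 91.1% of those of the progesterone library. The median cell had 14 Clca3b UMIs in the control and 81 with progesterone, where the median depth was 6995 and 13567 UMIs. Clca3a2 stood at 146 CPM [117 to 180] and 230 CPM [173 to 300], with 69.6% and 68.4% of the library's UMIs. No ratio between the libraries was formed for this class, since the progesterone library fell short of the 50 cells required.

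Within the control library, Clca3b was 265 times [227 to 312] and Clca3a2 69.1 times [46.2 to 105] as high in Psca-positive as in squamous cells. In control mucous luminal cells Clca3b had 2 UMIs and Clca3a2 had 1, and in the 1775 progesterone ones they had 5 and 1. The genes were therefore read in Psca-positive cells and hardly in mucous luminal cells of either library, the reverse of Clca1. Across 15 combinations of class and library with at least 50 cells, log2(CPM + 10) of Clca3a2 and Clca3b had a Pearson r of 0.985, a description in which the points share 2 libraries and in which the control Psca-positive cells are far above the rest. Clca3a2 was most like Sprr2h, Duoxa2 and Tmprss11e, and Clca3b most like Tmprss11e, Pglyrp4 and Clca3a2, among 11858 genes.

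In squamous cells both Clca3 genes were scarce and lay mostly in cluster 6. Control cluster 6 held 167 of the 175 squamous Clca3b UMIs and all 35 Clca3a2 UMIs. Clca3b stood at 10.6 CPM in control and 4.40 CPM in progesterone squamous cells, a ratio of 0.417 [0.323 to 0.535], and Clca3a2 at 2.11 and 0.567 CPM, a ratio of 0.268 [0.130 to 0.520]. Within cluster 6 the difference ran the other way, with Clca3b at 26.6 CPM in 1082 control cells and 158 CPM in 58 progesterone cells, a ratio of 5.95 [4.51 to 7.81]. In the progesterone library 2 squamous cells with at least 10 UMIs held 78.2% of the squamous Clca3b UMIs. Leaving cluster 6 out moved the log2 ratio of Clca3b from -1.26 to 0.20, and the ratio then had an interval that included 1, at 1.15 [0.483 to 3.01].

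**Figure D2:**
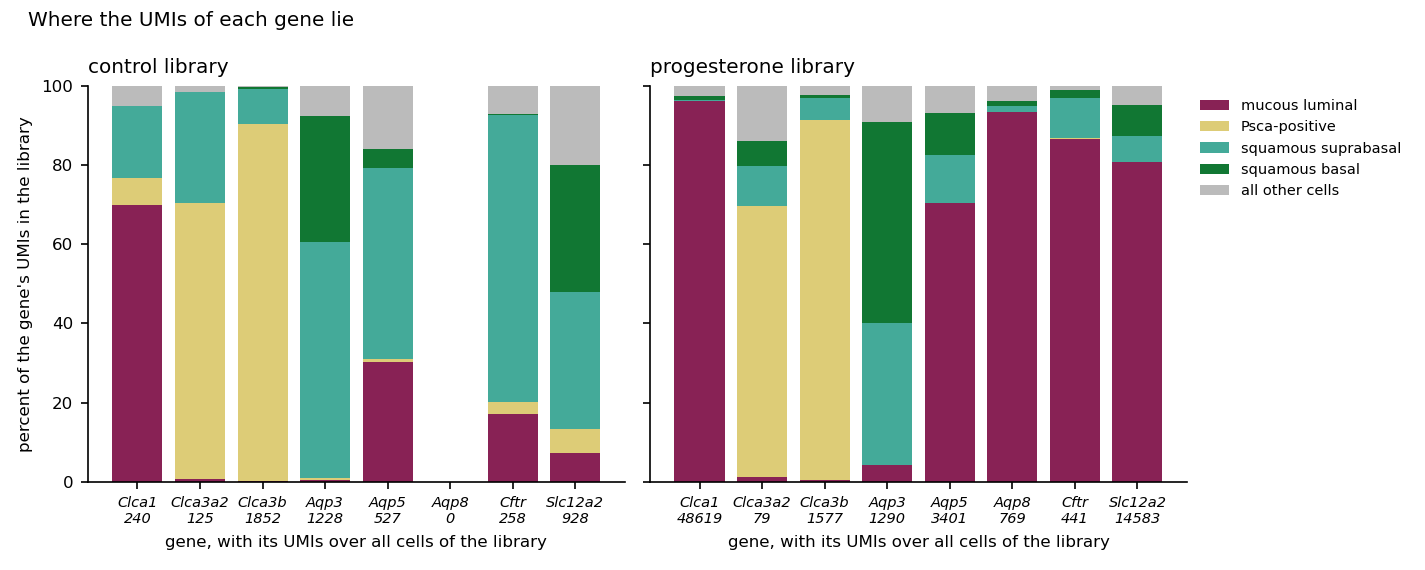
Share of each gene's UMIs, in percent of all its UMIs in a library (given under each name), that lay in mucous luminal, Psca-positive, suprabasal, basal and all other cells, for the control library (left) and the progesterone library (right). Aqp8 had 0 UMIs in the control; Clca3b had 90.2% and 91.1% in Psca-positive cells, while the mucous luminal share of Cftr was 17.1% in the control and 86.6% with progesterone.

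Of the water channels, Aqp8 was the one seen in a single library. The gene (ENSMUSG00000030762, chr7:123462291-123468004, plus strand) had 0 UMIs in all 4579 control cells and 769 UMIs in the progesterone library, 93.5% of them in mucous luminal cells. There it stood at 78.7 CPM [73.1 to 84.7], from 719 UMIs, and was at least 16.1-fold higher than in the control against a floor of 3 UMIs in that class, or 13.03-fold higher at the lower 95% limit of the ratio. After thinning, 9.75% [8.34 to 11.3] of progesterone mucous luminal cells had an Aqp8 UMI, and 16.8% did so without thinning. None of the 120 control cells that remained after thinning had one (0 of 120), which at a floor of 3 cells allows a share of cells with a UMI of up to 2.50% and has an upper Clopper-Pearson limit of 3.03%. This limits the cells with a UMI, not the cells that express the gene. Cluster 19 stood at 137 CPM and cluster 23 at 34.8 CPM, a ratio of 3.93 [3.32 to 4.68].

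Aqp8 was scarce in the other progesterone cells. Squamous cells had 21 UMIs, or 0.916 CPM [0.567 to 1.40], and macrophages 1 UMI, or 0.955 CPM [0.0242 to 5.32]. Fibroblasts had 6 UMIs, all in 2 of 116 cells, or 15.1 CPM [5.55 to 32.9], above the macrophage interval. For every 100 UMIs of Clca1 there were 1.54 [1.43 to 1.66] of Aqp8 in mucous luminal cells, 1.45 [0.0362 to 8.35] in macrophages and 2.92 [1.80 to 4.50] in squamous cells, where basal cells had 1.79 [0.855 to 3.32] and suprabasal cells 6.83 [3.34 to 12.6]. The macrophage value rests on 1 UMI, and the squamous and suprabasal values lie above that of mucous luminal cells, so these ratios do not show where the squamous UMIs came from. The squamous level was at least 5.05-fold over the control at the floor and was not above macrophages.

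Aqp5 did not differ between the libraries in mucous luminal cells beyond counting error. The gene (ENSMUSG00000044217) lies on the plus strand at chr15:99590782-99594829. The level was 261 CPM [222 to 305] in control cells, that of progesterone cells was 262 CPM [252 to 273], and the ratio was 1.00 [0.854 to 1.18]. After thinning, 31.7% [23.5 to 40.8] and 36.9% [34.6 to 39.4] of the cells had an Aqp5 UMI, compared with 49.6% and 57.8% before thinning. The 2 progesterone clusters differed, with 357 CPM in cluster 19 and 190 CPM in cluster 23.

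In squamous cells Aqp5 had 16.9 CPM [15.0 to 19.01] in control cells, compared with 33.8 CPM [31.5 to 36.2] for progesterone. The ratio of 2.00 [1.74 to 2.30] fell just short of 2-fold, at 1.998. In basal cells it was 3.65 against 23.1 CPM, a ratio of 6.33 [4.22 to 9.92], and in suprabasal cells 26.2 against 56.3 CPM, a ratio of 2.14 [1.83 to 2.52]. Macrophages of the same library stood at 29.6 CPM [20.1 to 42.0], which overlaps the squamous and basal values but lies below the suprabasal one, 56.3 CPM [51.0 to 62.0]. Without cluster 6 the squamous ratio was 4.12 [3.27 to 5.24]. The progesterone basal value was not above macrophages, which carried basal markers as given above, and the suprabasal value was.

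Aqp3 was the squamous member of the set. The gene (ENSMUSG00000028435, chr4:41092722-41098183, minus strand) had 91.5% of its control and 86.8% of its progesterone UMIs in squamous cells. It stood at 67.9 CPM [64.0 to 72.0] in control cells and 48.8 CPM [46.0 to 51.8] in progesterone squamous cells, a ratio of 0.719 [0.662 to 0.782]. In both libraries the suprabasal level was above the basal one, at 75.6 against 57.0 CPM in the control and 62.8 against 42.2 CPM with progesterone. Mucous luminal cells had 9.80 CPM [3.60 to 21.3] and 5.91 CPM [4.44 to 7.72], and the interval of their ratio, 0.603 [0.260 to 1.72], included 1. Macrophages of the progesterone library had 22.9 CPM [14.7 to 34.1] of Aqp3, above the mucous luminal level. The mucous luminal UMIs were not spread evenly, with 2.03 CPM in cluster 19 and 8.84 CPM in cluster 23 of that library, a ratio of 0.230 [0.0938 to 0.492]. Aqp3 was most like Ppp1r14c, Ltb4r2 and Polr3g over the 15 combinations.

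**Figure D3:**
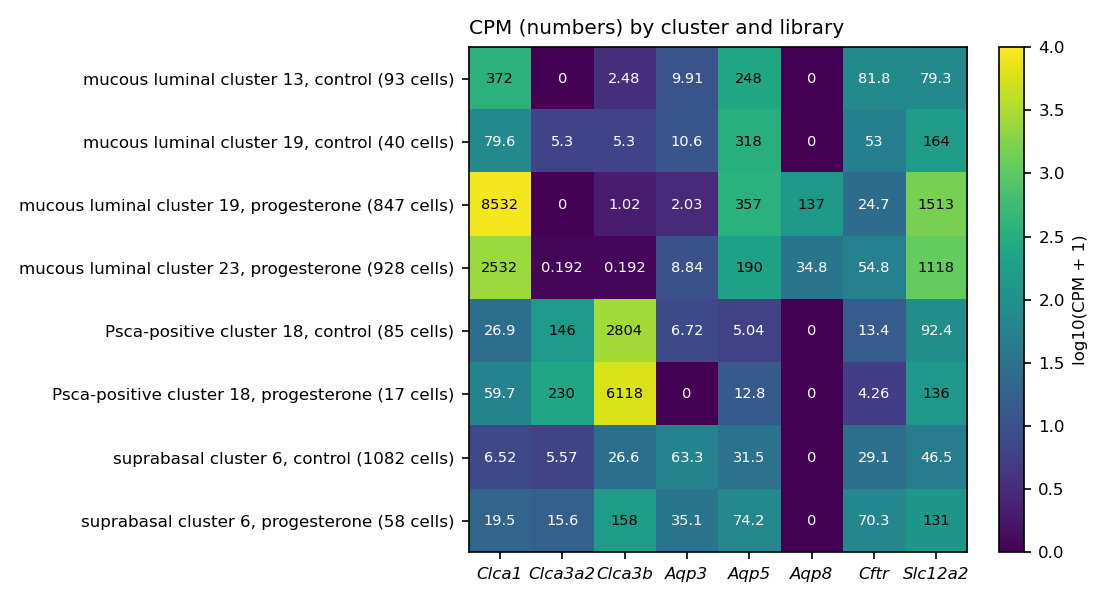
CPM of the 8 genes (columns) in the mucous luminal clusters 13, 19 and 23, the Psca-positive cluster 18 and suprabasal cluster 6 (rows, by library, with cell numbers); numbers are CPM and color gives log10(CPM + 1). Cluster 19 stood at 79.6 CPM of Clca1 in the control and 8532 CPM with progesterone, and Cftr was higher in cluster 23 than in cluster 19 of the progesterone library.

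Cftr was lower in the progesterone library when either epithelial class was summed, but the clusters that made up the classes differed. The gene (ENSMUSG00000041301) lies on the plus strand at chr6:18170687-18322768 and overlaps the gene models Gm15592 (opposite strand) and Gm15595 (same strand). In mucous luminal cells it stood at 71.9 CPM [52.2 to 96.5] in the control, from 44 UMIs, and 41.8 CPM [37.7 to 46.2] with progesterone, from 382 UMIs, a ratio of 0.582 [0.425 to 0.814]. After thinning, Cftr was read in 15.0% [9.14 to 22.7] of control cells and 7.94% [6.66 to 9.37] of progesterone cells, and without thinning 24.8% and 16.8%. The 2 progesterone clusters stood on either side of that mean, at 24.7 CPM in cluster 19 and 54.8 CPM in cluster 23, a ratio of 0.450 [0.354 to 0.569]. This order is the opposite of that of Clca1, Aqp5 and Aqp8. In the 40 control cells of cluster 19 Cftr stood at 53.0 CPM [25.4 to 97.5], which overlaps the 24.7 CPM [20.01 to 30.1] of its progesterone cells, and in control cluster 13 at 81.8 CPM [56.3 to 115].

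In squamous cells Cftr stood at 11.4 CPM [9.79 to 13.1] without treatment and at 2.31 CPM [1.73 to 3.02] with progesterone, a ratio of 0.203 [0.147 to 0.277]. The progesterone value overlaps that of macrophages, 0.955 CPM [0.0242 to 5.32], so the ratio compares summed UMIs and the progesterone side was not shown to be above macrophages. Of the 188 control UMIs, 183 were in cluster 6, 4 in the other suprabasal clusters and 1 in basal cells. That cluster had 1082 control and 58 progesterone cells, and its own Cftr level was 29.1 CPM in the control and 70.3 CPM with progesterone, a ratio of 2.41 [1.64 to 3.47]. Without cluster 6 the log2 ratio of squamous cells moved from -2.30 to 0.64, and the interval of the ratio, 1.56 [0.552 to 5.40], included 1. The control library thus had 72.9% of its Cftr UMIs in squamous and 17.1% in mucous luminal cells, and the progesterone library 12.02% and 86.6%. Cftr was most like Ly6g6e, Fut2 and Sort1.

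Slc12a2 was far higher in mucous luminal cells of the progesterone library than in those of the control. The gene (ENSMUSG00000024597) lies on the plus strand at chr18:57878678-57946821. It stood at 111 CPM [86.2 to 141] in control mucous luminal cells, from 68 UMIs, and 1288 CPM [1265 to 1312] with progesterone, from 11764 UMIs, a ratio of 11.6 [9.14 to 14.9]. After thinning, it was read in 13.3% [7.82 to 20.7] of control cells and 83.2% [81.3 to 85.0] of progesterone cells, against 27.7% and 90.5% without thinning. It was spread more evenly than Clca1, with a median of 5 and a maximum of 50 UMIs per cell, and with 29.2% of the UMIs in the 178 highest cells. Clusters 19 and 23 lay close together at 1513 and 1118 CPM, and control clusters 19 and 13 stood at 164 and 79.3 CPM.

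Slc12a2 was also read above the macrophage level in basal cells and cluster 6 of the control and in suprabasal cells of the progesterone library. Cluster 6 held 292 of the 322 control suprabasal UMIs, at 46.5 CPM. The suprabasal level of the control and the suprabasal ratio below therefore describe mostly that cluster on the control side, and no suprabasal ratio without it is given. Over all squamous cells it stood at 37.4 CPM [34.5 to 40.4] without treatment and at 91.6 CPM [87.8 to 95.7] with progesterone, a ratio of 2.45 [2.24 to 2.69], or 2.85 [2.54 to 3.21] without cluster 6. That ratio for suprabasal cells was 3.93 [3.46 to 4.47] and the basal one 1.69 [1.49 to 1.93], so that the control had the higher level in basal cells (43.4 against 33.1 CPM) and the progesterone library in suprabasal cells (130 against 73.4 CPM). Macrophages had 3.13 CPM of Slc12a2 in the control, below both control squamous layers as summed, against 66.8 CPM [52.1 to 84.4] with progesterone. After thinning, 9.84% [6.03 to 14.9] of progesterone macrophages and 21.5% [19.05 to 24.0] of suprabasal cells had a UMI, and 12.4% and 38.3% without thinning, while basal cells, at 73.4 CPM and 14.1% [12.9 to 15.4], overlapped the macrophages. Since macrophages of the progesterone library carried basal markers, the overlap does not show that the basal signal is background. For every 100 Clca1 UMIs there were 25.2 of Slc12a2 in mucous luminal, 101 in macrophages and 596 in suprabasal cells. In Psca-positive cells the gene stood at 92.4 CPM in the control and 136 CPM with progesterone.

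**Figure D4:**
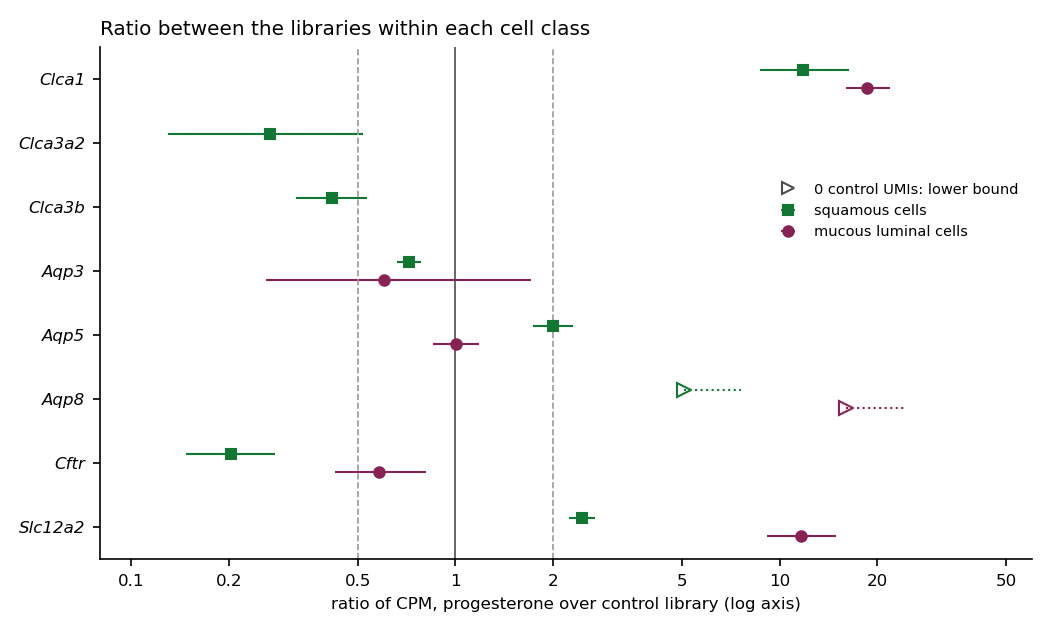
Ratio of CPM in the progesterone over the control library (log axis) for each gene in squamous (green squares) and mucous luminal cells (purple circles), with 95% conditional binomial intervals; open triangles are lower bounds against 0 control UMIs, and dashed lines mark 2-fold. Clca1, Aqp8 and Slc12a2 lie above 2-fold in both classes, Cftr lies below 1 in both, and Aqp5 lies at 1.00 in mucous luminal cells.

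Counted together, 3 of the 6 members with at least 20 UMIs in mucous luminal cells were at least 2-fold higher in the progesterone library (Clca1, Aqp8 and Slc12a2) and 0 were at least 2-fold lower, where 16.6% and 6.90% of all 11065 genes were. Their median log2 ratio was 1.77, against 0.15 for all genes. In squamous cells 3 of 8 were at least 2-fold higher (Clca1, Aqp8 and Slc12a2, of which Clca1 and Aqp8 were not above macrophages) and 3 were lower (Clca3a2, Clca3b and Cftr), where 10.5% and 7.13% of 12825 genes were. The count of 3 lower members rests on cluster 6, with 1082 control and 58 progesterone cells, and became 0 without it and 1 under 5 other alternatives. The median was 0.26 against 0.10. These 2 comparisons use different cells of the same libraries.

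Between classes of the progesterone library, 5 of 7 members were at least 2-fold higher in mucous luminal than in squamous cells and 2 were lower, where 17.8% and 12.2% of 12803 genes were. Clca1 was 163 times [152 to 176] as high, Aqp8 86.0 times [55.8 to 140], Cftr 18.1 times [13.6 to 24.6], Slc12a2 14.1 times [13.4 to 14.7] and Aqp5 7.75 times [7.15 to 8.42]. The squamous levels of Clca1 and Aqp8 were not above macrophages and that of Cftr overlapped them. These 3 are therefore ratios of summed UMIs and are not read as ratios of expression. Aqp3, at 0.121 times [0.0904 to 0.159], and Clca3b, at 0.124 times [0.0395 to 0.2998], were the lower ones. The control library gave the same order of classes for Clca1, at 103 times [73.7 to 147], Aqp5, at 15.5 times [12.6 to 18.8], Cftr, at 6.33 times [4.45 to 8.83], and Slc12a2, at 2.97 times [2.28 to 3.82].

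Between control Psca-positive and squamous cells, 4 of 7 members were at least 2-fold higher (Clca1, Clca3a2, Clca3b and Slc12a2) and 2 lower (Aqp3 and Aqp5), where 11.0% and 40.2% of 11582 genes were. Clca1 rests on 16 UMIs in 8 of the 85 Psca-positive cells, at 26.9 CPM [15.4 to 43.6]. After thinning, 3 of 79 of these cells had a Clca1 UMI. Aqp5 rests on 3 UMIs in Psca-positive cells, and its ratio turned above 1 in 5 of 11 alternatives, with a range of 0.157 to 8.72. The count of lower members is not above the share over all genes. Between control mucous luminal and Psca-positive cells, 3 of 6 were at least 2-fold higher (Clca1, Aqp5 and Cftr) and 2 lower (Clca3a2 and Clca3b), where 49.3% and 11.4% of 5337 genes were, so the count of higher members is close to the background. Slc12a2 did not separate these classes beyond counting error as named here, with a ratio of 1.203 [0.831 to 1.75]. Its ratio stayed above 1 in all 9 alternatives that could be computed, with a range of 1.199 to 2.61.

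Within progesterone mucous luminal cells, Aqp5 and Aqp8 were read more often in cells with a Clca1 UMI. Of 919 cells with and 681 cells without Clca1, all thinned to 2000 UMIs, 45.7% [42.4 to 49.0] and 25.1% [21.9 to 28.5] had an Aqp5 UMI, and 14.7% [12.5 to 17.2] and 3.08% [1.92 to 4.68] an Aqp8 UMI. Slc12a2 was even, at 82.4% [79.7 to 84.8] and 84.3% [81.3 to 86.9], and so was Cftr, at 7.07% [5.50 to 8.93] and 9.10% [7.05 to 11.5]. Aqp3 went the other way, at 0.326% [0.0674 to 0.951] and 3.23% [2.04 to 4.85]. By cluster this was not separated. Cluster 19 had an Aqp3 UMI in 1 of 654 cells with and 0 of 104 cells without Clca1. In cluster 23 the Aqp3 shares were 0.755% [0.0915 to 2.70] and 3.81% [2.40 to 5.72], with overlapping intervals. Within cluster 23 alone, where 265 of 842 thinned cells had Clca1, the shares with and without it were 41.5% and 22.9% for Aqp5 and 9.81% and 2.43% for Aqp8. In cluster 19 they were 47.4% and 37.5% for Aqp5, with overlapping intervals, and 16.7% [13.9 to 19.7] and 6.73% [2.75 to 13.4] for Aqp8. With cells thinned to 4000 UMIs instead, the cluster 19 shares overlapped for both genes, at 68.3% [63.7 to 72.6] and 66.04% [51.7 to 78.5] for Aqp5 and 26.7% [22.6 to 31.1] and 13.2% [5.48 to 25.3] for Aqp8, while cluster 23 kept 54.1% [47.3 to 60.7] and 40.0% [35.3 to 44.7] for Aqp5 and 17.6% [12.8 to 23.2] and 5.94% [3.91 to 8.58] for Aqp8. Cells of 1 library are not replicates, and these shares describe that library.

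**Figure D5:**
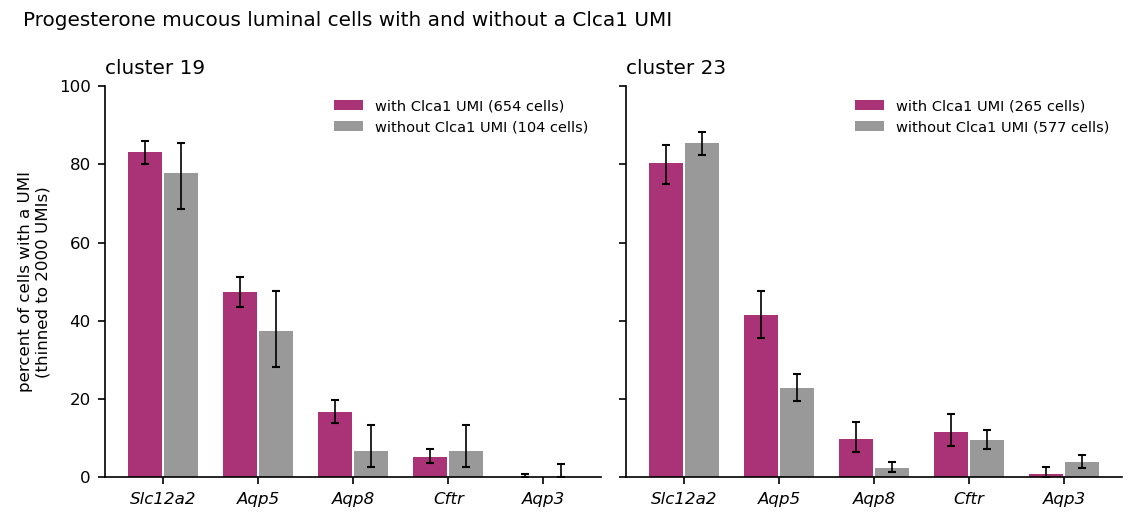
Percent of progesterone mucous luminal cells with a UMI of each gene, after thinning to 2000 UMIs, for cells with (purple) and without (grey) a Clca1 UMI, in cluster 19 (left) and cluster 23 (right); bars carry 95% Clopper-Pearson intervals. In cluster 23, Aqp5 was read in 41.5% of cells with and 22.9% of cells without Clca1, and Slc12a2 in 80.4% and 85.4%.

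Over the 15 combinations, Clca1 was most like Chad, Cldn22 and Muc5b, with Pearson r of 0.908, 0.904 and 0.903, and Muc5b is a gel-forming mucin of this epithelium. Aqp5 was most like Prr15l, Tpd52l1 and Creb3l4, Aqp8 most like Fat3, Cdkl1 and Dscam, and Slc12a2 most like D630039A03Rik, Tvp23b and Pdzrn4. All combinations come from 2 libraries of unequal depth, and sparse genes such as Aqp8 are near 0 in most of them.

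For the 5 lists of related genes, the shares over all genes are again 16.6% higher and 6.90% lower in mucous luminal cells and 10.5% and 7.13% in squamous cells, and counts of 1 or 2 in lists of 3 to 10 tested genes describe these libraries only. Other CLCA, anoctamin and bestrophin genes, 10 in number, gave 4 genes with enough UMIs in mucous luminal cells, of which 1 was at least 2-fold higher and 1 lower in the progesterone library. Ano1, the calcium-activated chloride channel itself, stood at 32.7 CPM in the control and 81.5 CPM with progesterone, a ratio of 2.49 [1.60 to 4.11]. In squamous cells it was 15.5 against 29.6 CPM, a ratio of 1.91 [1.65 to 2.21], and 1 of 6 tested genes of the list was 2-fold higher, the bestrophin Best2, at 0.423 against 1.13 CPM. The scramblases Ano6 and Ano10 had ratios of 1.65 [0.852 to 3.65] and 1.78 [0.980 to 3.60] in mucous luminal cells. The lower gene was Ano9, with 4 control UMIs, and its interval, 0.402 [0.138 to 1.59], included 1.

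Of 9 further aquaporins, 3 were tested in mucous luminal cells and 2 were at least 2-fold higher with progesterone and 1 lower, where 16.6% and 6.90% of all genes were. Aqp9, a water and small solute channel, stood at 6.53 CPM in the control, from 4 UMIs, and 67.7 CPM with progesterone, a ratio of 10.4 [4.02 to 38.1]. Aqp4, a water channel, went the other way, at 67.0 CPM in the control and 1.42 CPM with progesterone, a ratio of 0.0213 [0.0105 to 0.0405]. In squamous cells Aqp4 stood at 23.3 against 3.18 CPM, a ratio of 0.137 [0.105 to 0.176], and Aqp9 at 0.362 against 1.26 CPM. Aqp4 was among the genes that led cluster 6, which held 371 of its 385 control and 60 of its 73 progesterone squamous UMIs at 59.0 and 117 CPM. Without that cluster the squamous ratio was 0.425 [0.184 to 0.976]. In cluster 19 the control cells had 84.9 CPM [48.5 to 138] of Aqp4 and the progesterone cells 2.03 CPM [0.878 to 4.01], so the mucous luminal difference was also present in the cluster shared by both libraries. The other higher gene, Aqp11, had 1 control UMI in mucous luminal cells and 32 with progesterone, a ratio of 2.15 [0.358 to 87.3] that includes 1.

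The list of apical chloride and bicarbonate transport had 2 of 5 tested genes at least 2-fold higher and 0 lower in mucous luminal cells, beside 16.6% and 6.90% of all genes. These were the carbonic anhydrases Car12, at 40.8 against 248 CPM, a ratio of 6.07 [4.10 to 9.39], and Car2, at 22.9 against 74.8 CPM, a ratio of 3.27 [1.94 to 6.01]. In cluster 19 Car12 had 106 CPM [64.8 to 164] in control and 237 CPM [222 to 253] in progesterone cells, while control cluster 13 had 9.91 CPM. Car2 had 58.3 CPM [29.1 to 104] and 146 CPM [134 to 158] in cluster 19, but only 21.0 CPM in progesterone cluster 23. In squamous cells Car12 was also higher, 2.86 [2.69 to 3.05], but Car2 was lower, 0.214 [0.169 to 0.270]. Squamous cells had 2 of 8 tested genes higher and 3 lower, among them the anion exchanger Slc26a4 (pendrin), at 9.12 against 0.828 CPM, and Slc26a9, at 2.29 against 0.480 CPM. Outside cluster 6 these 2 genes had 1 and 2 control UMIs in squamous cells. Of the 3 control classes, Psca-positive cells were highest in Slc26a4 and Slc26a9, at 213 and 63.8 CPM, which was 23.4 times [18.3 to 29.8] and 27.8 times [17.3 to 44.8] the control squamous level.

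Basolateral and potassium transport genes gave 2 of 10 tested genes higher and 1 lower in mucous luminal cells, near the 16.6% and 6.90% of all genes, with a median log2 ratio of 0.65 against 0.15 for all genes. The sodium pump subunit Atp1b3 had a ratio of 2.12 [1.56 to 2.94], and the potassium channel subunit Kcne3 one of 2.09 [1.04 to 4.89]. In cluster 19 Kcne3 overlapped between the libraries, at 26.5 CPM [8.61 to 61.9] in control and 35.9 CPM [30.2 to 42.3] in progesterone cells. Atp1b3 there had 90.2 CPM [52.5 to 144] and 160 CPM [148 to 173]. Fxyd4, a regulator of the pump, was lower, at 1632 against 281 CPM, a ratio of 0.172 [0.160 to 0.185], while Fxyd3 was slightly higher, at 1.11 [1.05 to 1.17]. Fxyd4 was among the genes that led cluster 13, which had 93 control and 0 progesterone cells and stood at 2104 CPM. The control cells of cluster 19 had 636 CPM [528 to 761] of Fxyd4 and its progesterone cells 466 CPM [445 to 488]. Fxyd4 was also lower in squamous cells, at 122 against 36.1 CPM, and at 67.9 against 33.5 CPM without cluster 6. In squamous cells 1 of 10 was higher, the potassium channel Kcnn4, from 3 control UMIs, with a ratio of 6.50 [2.00 to 33.5], and 1 lower, Fxyd4. Without cluster 6 the pump subunit Atp1b1, chosen after its values were seen, was also past 2-fold, at 5.67 [4.65 to 6.97].

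Sodium absorption genes had 2 of 5 tested genes at least 2-fold higher in mucous luminal cells and 0 lower, where 16.6% and 6.90% of all genes were, with a median log2 ratio of 0.76. These were the sodium channel subunits Scnn1b, at 6.53 against 30.8 CPM, a ratio of 4.71 [1.82 to 17.4], and Scnn1g, from 1 control UMI, with a ratio of 3.15 [0.538 to 127] that includes 1. The third subunit, Scnn1a, stood at 57.2 against 33.7 CPM, a ratio of 0.590 [0.415 to 0.863], and the channel-activating protease Prss8 at 32.7 against 55.3 CPM, a ratio of 1.69 [1.08 to 2.80]. For Scnn1a the order did not hold in cluster 19, where control cells had 31.8 CPM [11.7 to 69.3] and progesterone cells 47.3 CPM [40.8 to 54.6]. In squamous cells 0 of 5 were higher and 1 was lower, Scnn1a, at 8.58 against 4.23 CPM. Without cluster 6 Scnn1a was no longer past 2-fold, at 0.576 [0.416 to 0.7999], and Scnn1b was, at 3.13 [2.17 to 4.62]. Of the 3 control classes, Psca-positive cells were highest in Scnn1a and Prss8, at 97.4 and 280.4 CPM.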

How the data were processed

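The deposited matrices hold raw UMI counts, as whole numbers, per gene and barcode of 10x Genomics 3′ libraries, made with Cell Ranger 3.0.2 on mm10 per the submitters' processing notes; the annotation is not given in the sources used here. The deposited gene and barcode lists have no other numeric values.

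Kept cells had 200 or more detected genes and a mitochondrial share no higher than 20%, and the highest Scrublet scores were left out as doublets at 0.8% per 1000 cells (181 control, 680 progesterone). Clustering used scanpy 1.11.5 (2000 variable genes, 30 components, 15 neighbours, Leiden resolution 1) on both libraries together. Names came from marker lists, with thresholds set after the clusters were seen. Values of related genes by cluster and without cluster 6 were added after seeing the data.

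For each class of a library, UMIs were added up and expressed as CPM. Levels have exact Poisson, shares exact Clopper-Pearson and ratios exact conditional binomial 95% intervals; the code was tested on simulated data. A ratio needed 50 cells a side and a count of members 20 UMIs over both sides; 0 UMIs were set to a floor of 3. Positions are from GENCODE M21, where 30934 of the 31053 identifiers were found.

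Members and lists were chosen with earlier results of these data known. Named related genes were the 3 of each list with the most UMIs and those past 2-fold in the comparison described, apart from results that are not reported here; the 3 most alike genes were ranked by Pearson r of log2(CPM + 10).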

Additional observations from a re-analysis of the deposited data

How the results depend on the processing

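The 34 ratios were recomputed under 8 planned and 3 added alternatives (cluster 13 counted as Psca-positive, squamous cells without cluster 6, cluster 17 counted as mucous luminal, all chosen after seeing the data), and the counts also with no minimum of UMIs. Of 339 values, 222 lay inside the reported interval, 107 lay outside it, and 10 were ratios whose interval excludes 1 and which changed direction. The mucous luminal ratios of Clca1, Aqp8 and Slc12a2 over the control stayed above 2-fold in all 9 alternatives that could be computed, at 15.0 to 26.2, 15.5 to 22.6 and 5.81 to 12.8. Cells assigned by marker UMIs and cluster 13 counted as Psca-positive left 46 and 44 control mucous luminal cells, too few for those ratios.

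Reversed log2 ratios of Clca3b in squamous cells between libraries were 1.41 with the stricter cell filter, 0.0036 at Leiden resolution 2, 1.22 with cells assigned by marker UMIs and 0.20 without cluster 6; that of Cftr was 0.64 without cluster 6. Those of Aqp5 in control Psca-positive over squamous cells were 1.10 with the stricter filter, 0.0022 without doublet removal, 0.84 with libraries clustered apart, 3.12 by marker UMIs and 2.61 with cluster 13 counted as Psca-positive. The cause was not tested; cluster 6 held 183 of 188 control squamous Cftr UMIs and cluster 13 had 100 Aqp5 UMIs against 3 in control Psca-positive cells.

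The 3 squamous members at least 2-fold lower with progesterone became 1 with the stricter filter, no doublet removal, resolution 2, libraries clustered apart or marker UMIs, and 0 without cluster 6; the 3 higher became 5 by marker UMIs. The 0 lower in mucous luminal cells became 1 without doublet removal, at resolution 0.5, with the mean of each cell's CPM or with cluster 17, and 2 with no minimum of UMIs. The 2 lower in progesterone mucous luminal than squamous cells became 1 without doublet removal, with libraries apart or without cluster 6. The 2 lower in control Psca-positive than squamous cells became 1 with the stricter filter, no doublet removal, resolution 2, libraries apart, marker UMIs, cluster 13 as Psca-positive or without cluster 6.

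Scaling without mitochondrial, ribosomal and the 20 most abundant genes moved the median log2 ratio of all genes by 0.18, 0.14, -0.39, -0.39 and 0.05 in the 5 comparisons in the order squamous, mucous luminal, progesterone library, control Psca-positive over squamous and control mucous luminal over Psca-positive; 33 of 34 ratios kept their direction. No paired analysis was possible because each group has 1 library. The 612235 UMIs of control mucous luminal and 595531 of control Psca-positive cells limit every value that rests on them.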

Other observations

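Slc12a2 was also high in a cluster that carried no name. Cluster 17 held 86 control and 218 progesterone cells with median depths of 1753.5 and 802 UMIs, against 3733 and 4151 over all kept cells, and was led by the uroplakin genes Upk1a and Upk3a, which are known from the urinary tract. Its mean log2 level over the median cluster was 2.65 for the mucous and 2.15 for the columnar list. Both passed the 2 and 1.5 required of mucous luminal cells. The name was withheld because the cluster was shallow and no marker of these lists was among its leading 10 genes. Slc12a2 stood there at 600.0 CPM [489 to 728] in the control, from 102 UMIs, and 700.0 CPM [620.4 to 787] with progesterone, from 280 UMIs. The control value is above that of control mucous luminal cells, 111 CPM [86.2 to 141]. Aqp5 stood at 224 CPM [158 to 307] and 155 CPM [119 to 199] in the same cells. Clca1 was at 52.9 CPM [24.2 to 100.5] and 563 CPM [491 to 641], and its part from free RNA was not tested. Counting cluster 17 as mucous luminal gave the lowest Slc12a2 ratio of that class between the libraries, 5.81, against 11.6 without it.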
